A study of Homo sapiens with 18 samples.

Results

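The genes described here encode the human selenophosphate synthetases: SEPHS2 (ENSG00000179918), itself a selenoprotein, and SEPHS1 (ENSG00000086475), its paralog without selenocysteine. They were chosen by Ensembl ID, as 2 of the 58676 gene IDs in the deposited count table, and both were found and passed the filter on low counts in every fit. RNA immunoprecipitation sequencing (RIP-seq) sets the RNA recovered with a tagged protein against the RNA of the lysate it came from, called the input. HEK 293T cells, an established human line from embryonic kidney, were transiently transfected with Flag-SBP2 and given 100 nM sodium selenite 4 h later, with Flag-SBP2 alone, or with the Flag vector as control. Lysates were taken 48 h after transfection. Each treatment had 3 lysates, each giving an anti-Flag RIP library and an input library, so that 6 groups and 18 libraries were measured. Every group, vector controls included, was transfected, so some cells of each lysate may carry no construct, and the growth protocol names the cell line without its final T.

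Selenophosphate synthetase makes selenophosphate, the selenium donor with which the cell turns a serine-derived precursor on the selenocysteine tRNA into selenocysteine. SEPHS2 is the enzyme with this activity in mammals and carries a selenocysteine in its own active site, so its mRNA holds an in-frame UGA codon and, in its 3′ untranslated region, a SECIS element, the hairpin that SBP2 binds when UGA is read as selenocysteine. SEPHS1 has a threonine in that place, is not known to make selenophosphate, and is linked in mice to redox balance and embryonic survival. RefSeq places SEPHS2 on chromosome 16 (GRCh38.p14, 30443631 to 30445874, a span of 2244 bases, 1 listed transcript) and SEPHS1 on chromosome 10 (13317428 to 13348293, a span of 30866 bases, 8 listed transcripts). Neither span overlaps another RefSeq gene (0 overlaps for each). RefSeq also lists 6 SEPHS1 pseudogenes and 1 SEPHS2 pseudogene, and how the authors' counting treated reads that match both a gene and its copies is not given in the sources used here.

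The libraries held 15.2 to 29.9 M counts each (M, 1e+06), and 17678 IDs were tested over the 18 libraries. SEPHS1 had between 2845 and 11214 counts in a library and SEPHS2 between 4968 and 75995, so counting error was at most 1.87% of a value. The spread between replicates, as a coefficient of variation, was 3.53% to 10.7% for SEPHS2 and 1.07% to 6.10% for SEPHS1 over the 6 groups. Levels are given as CPM (counts per 1e+06, scaled by TMM factors, which correct for a few very abundant RNAs taking up reads), and they compare libraries, not genes of different length.

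SEPHS2 mRNA was recovered with Flag-SBP2 at several times its input level and was not enriched by anti-Flag beads in cells with the vector alone. Its RIP libraries held 1845, 2149 and 2284 CPM with Flag-SBP2 and selenite (replicates 1, 2 and 3), 2433, 2779 and 2692 CPM with Flag-SBP2, and 299, 339.7 and 279 CPM with the Flag vector. Every SBP2 precipitate was thus far above every vector precipitate, and the precipitates with selenite all lay below those without. The matching inputs held 284, 305 and 294 CPM with Flag-SBP2 and selenite, 349.9, 360.1 and 318 CPM with Flag-SBP2, and 354, 377 and 312 CPM with the Flag vector. Group means in RIP were 2093 ± 224, 2635 ± 179.7 and 306 ± 30.9 CPM, and in input 295 ± 10.4, 343 ± 22.0 and 348 ± 33.1 CPM, in the same order of treatments (SD, n = 3). From low to high, the order was inputs with selenite, vector precipitates, Flag-SBP2 inputs and vector inputs, each overlapping its neighbour. Precipitates with selenite followed and then those with Flag-SBP2 alone, both without overlap with the group before them.

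SEPHS1 followed a different course, with its highest level in the vector precipitates. Its RIP libraries held 291, 269 and 292 CPM with Flag-SBP2 and selenite, 272, 284 and 278 CPM with Flag-SBP2, and 348, 382 and 341 CPM with the Flag vector. The inputs held 211, 198 and 211 CPM with Flag-SBP2 and selenite, 200.03, 196 and 199 CPM with Flag-SBP2, and 203, 202 and 196 CPM with the Flag vector. Every precipitate was above every input, the 2 SBP2 precipitations overlapped, and both lay below the vector precipitation without overlap. The 3 input groups overlapped with each other. Group means in RIP were 284 ± 13.01, 278 ± 5.97 and 357 ± 21.8 CPM, and in input 207 ± 7.72, 198 ± 2.11 and 200.3 ± 4.08 CPM, in the same order of treatments (SD, n = 3).

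**Figure D1:**
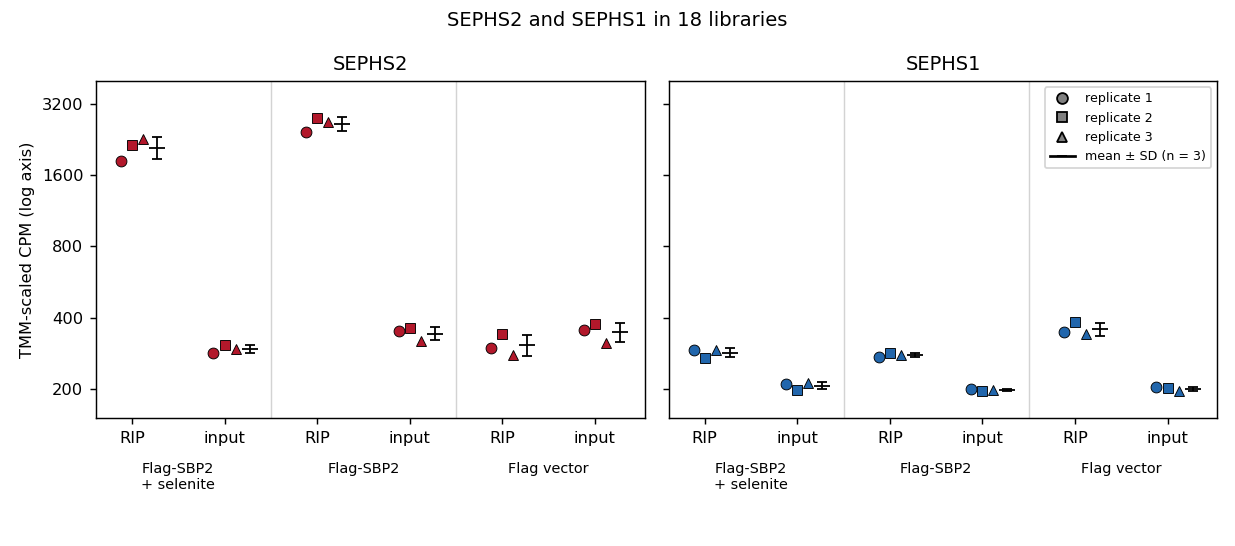
TMM-scaled CPM (log axis) of SEPHS2 (left panel) and SEPHS1 (right panel) in each of 18 libraries, with RIP left of input for Flag-SBP2 with selenite, Flag-SBP2 and the Flag vector; symbols mark replicates and bars the mean ± SD (n = 3). SEPHS2 precipitates with SBP2 lie at 1845 to 2779 CPM and all other SEPHS2 libraries at 279 to 377 CPM, while SEPHS1 is highest in the vector precipitates at 341 to 382 CPM.

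The comparison of each precipitate with its own input gives the recovery in that lysate. For SEPHS2 the log2 RIP-to-input ratio was 2.697, 2.82 and 2.96 in lysates with Flag-SBP2 and selenite, 2.80, 2.95 and 3.08 with Flag-SBP2, and -0.24, -0.15 and -0.16 with the Flag vector. All 6 SBP2 lysates recovered SEPHS2 above input and all 3 vector lysates slightly below it. In edgeR's quasi-likelihood fit, SEPHS2 was 7.10-fold higher in RIP than in input with selenite (log2 2.83, SE 0.099, adjusted p = 2.58e-17) and 7.69-fold higher without it (log2 2.94, SE 0.10, adjusted p = 1.86e-17). Among all tested IDs, 30.7% were called higher and 31.6% lower with selenite, and 30.3% and 31.7% without it, and 11 of 17678 IDs had a larger log2 change than SEPHS2 in each.

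In vector lysates SEPHS2 differed from input by -0.19 on the log2 scale (SE 0.093, 95% interval -0.38 to 0.0070), which did not pass (edgeR adjusted p = 0.0786). Of all tested IDs, 31.5% were called higher and 39.8% lower. With the lysate as a replicate block the same difference passed (log2 -0.19, edgeR adjusted p = 0.0295), where 32.2% of all tested IDs were called higher and 40.0% lower. The value hung on the scaling: it was 0.00029 with library size alone, which moved the median of all IDs for this comparison from -0.13 to 0.057. The distance of SEPHS2 from that median was -0.057, a value that scaling all IDs alike leaves nearly as it is.

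SEPHS1 was recovered above input in every lysate, most of all with the vector. Its log2 RIP-to-input ratio was 0.47, 0.45 and 0.47 with Flag-SBP2 and selenite, 0.44, 0.54 and 0.49 with Flag-SBP2, and 0.78, 0.91 and 0.80 with the Flag vector. The lowest vector lysate lay above the highest of the 6 SBP2 lysates. In edgeR's fit SEPHS1 rose 1.38-fold over input with selenite (log2 0.46, SE 0.070, adjusted p = 3.34e-06), 1.403-fold without it (log2 0.49, SE 0.070, adjusted p = 1.44e-06) and 1.78-fold with the vector (log2 0.83, SE 0.071, adjusted p = 1.04e-10). Called higher among all tested IDs were 30.7%, 30.3% and 31.5% in these comparisons, so a call in this direction was common. Recovery of SEPHS1 in vector lysates was above that of most RNAs, with 17.6% of IDs at a larger log2 change, against 26.6% with Flag-SBP2 and selenite and 25.3% with Flag-SBP2.

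**Figure D2:**
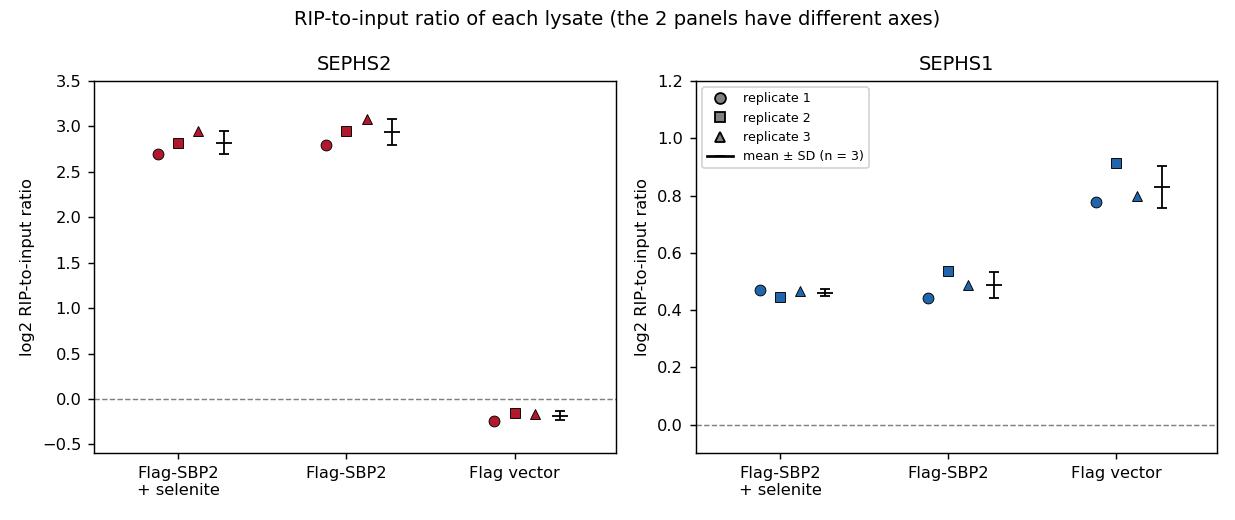
Log2 RIP-to-input ratio of SEPHS2 (left) and SEPHS1 (right) in each of 9 lysates, with separate vertical axes; symbols mark replicates, bars the mean ± SD (n = 3) and the dashed line equal RIP and input. SEPHS2 lies at 2.697 to 3.08 in SBP2 lysates and at -0.24 to -0.15 in vector lysates, and SEPHS1 at 0.44 to 0.54 in SBP2 lysates and at 0.78 to 0.91 in vector lysates.

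Recovery with SBP2 beyond the bead background was taken as the RIP-to-input change with SBP2 less the same change with the vector. The 2 synthetases went opposite ways. Over the vector, SEPHS2 was enriched 8.07-fold with Flag-SBP2 and selenite (log2 3.01, SE 0.13, edgeR adjusted p = 5.42e-15) and 8.75-fold with Flag-SBP2 alone (log2 3.13, SE 0.13, edgeR adjusted p = 1.79e-15). Against the vector, SEPHS1 was 1.29-fold lower with Flag-SBP2 and selenite (log2 -0.37, SE 0.099, edgeR adjusted p = 0.00491) and 1.27-fold lower with Flag-SBP2 alone (log2 -0.34, SE 0.099, edgeR adjusted p = 0.00715). Both comparisons rest on the same 3 vector lysates, which were not given selenite, so bead background with selenite was not measured. Of all tested IDs, 19.3% were called higher and 14.4% lower with selenite, and 21.7% and 18.1% without it. With library size alone these became 15.1% and 20.3% with selenite, and 17.0% and 24.7% without it.

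The fall of SEPHS1 was modest and lay well inside the range of all IDs, of which 24.0% had a lower value with selenite and 28.7% without it. It remained past the threshold under each alternative run, at -0.53 to -0.34 with selenite and -0.49 to -0.34 without it, leaving out single lysates aside. Without any 1 lysate it lay at -0.41 to -0.35 (edgeR adjusted p up to 0.0227) and at -0.39 to -0.32 (edgeR adjusted p up to 0.0460, without Flag-SBP2 replicate 1). The scaling moved it, to -0.50 with selenite and -0.49 without it with library size alone, where the median of all IDs was -0.10 and -0.13, against 0.026 and 0.022 with TMM factors. The distance of SEPHS1 from that median was -0.40 with selenite and -0.37 without it under both scalings. Scaling all IDs alike leaves such a distance nearly as it is, so its steadiness is no check on the fall.

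SEPHS2 stood near the top of the enrichment, but its place differed from its place in recovery over input. Its enrichment was exceeded by 65 of 17678 IDs with selenite and by 79 without it. All 65 and all 79 of these IDs had a lower mean ratio than SEPHS2 in vector lysates, with medians of -1.94 and -1.92 against -0.19 for SEPHS2. Only 5 of the 65 and 6 of the 79 had a higher mean ratio than SEPHS2 in the SBP2 lysates, where their medians were 1.58 and 1.61 against 2.82 and 2.94. The IDs ahead of SEPHS2 in enrichment were thus mostly RNAs well below their own input level in the vector precipitate, whereas SEPHS2 was there at close to its input level. These counts are a description, since enrichment is the difference of the 2 ratios, and they include IDs of low counts (46 of the 65 and 52 of the 79 reached 1 in mean log2 CPM).

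**Figure D3:**
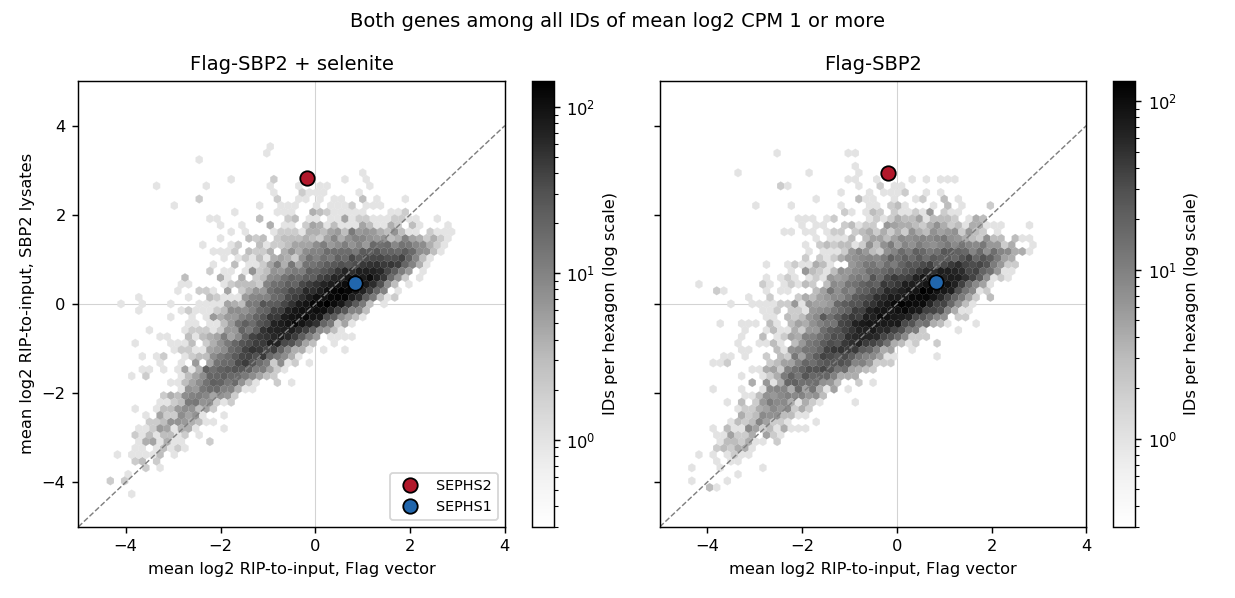
Mean log2 RIP-to-input ratio in Flag-SBP2 lysates with selenite (left) and without it (right) on the vertical axis, against that in Flag vector lysates on the horizontal axis, for all IDs whose log2 CPM averaged at least 1; grey shows IDs per hexagon on a log scale and the dashed line equal ratios. SEPHS2 lies far above the line at 2.82 and 2.94 against -0.19, and SEPHS1 just below it at 0.46 and 0.49 against 0.83.

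The number of SEPHS2 counts per SEPHS1 count within a library does not depend on how libraries are scaled. Its absolute size reflects the length of both RNAs, so only its change between libraries is read. In RIP it was 6.33, 7.98 and 7.81 with Flag-SBP2 and selenite, 8.95, 9.79 and 9.68 with Flag-SBP2, and 0.859, 0.890 and 0.820 with the Flag vector. In input it was 1.35, 1.54 and 1.39 with Flag-SBP2 and selenite, 1.75, 1.84 and 1.60 with Flag-SBP2, and 1.75, 1.86 and 1.60 with the Flag vector. Precipitation thus moved the balance of the 2 mRNAs toward SEPHS2 in every SBP2 lysate and toward SEPHS1 in every vector lysate.

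On the log2 scale, the RIP-to-input ratio of SEPHS2 exceeded that of SEPHS1 by 2.23, 2.37 and 2.49 with Flag-SBP2 and selenite and by 2.35, 2.41 and 2.596 with Flag-SBP2. With the Flag vector it was lower than that of SEPHS1, at -1.02, -1.07 and -0.96. Over the 6 SBP2 lysates the mean was 2.41 ± 0.13 (SD, n = 6), against -1.02 ± 0.053 in the vector lysates (SD, n = 3). The shift of 3.42, or 10.7-fold, had a two-sided exact permutation p of 0.0238, the smallest that 6 against 3 lysates allow. That test takes the 9 lysates as independent, whereas same-numbered lysates correlated in their ratios over IDs whose log2 CPM averaged at least 1. Against vector lysates the correlation was 0.20 to 0.35 for Flag-SBP2 and 0.090 to 0.58 for Flag-SBP2 with selenite. Selenite lysate 2 correlated better with vector lysate 1 (0.15) than with vector lysate 2 (0.090). Relabelling within replicate number, as a replicate block, left 27 arrangements and an exact permutation p of 0.0741, the smallest they allow, so the shift did not pass there. Each SBP2 treatment alone against the vector gave 3.38 with selenite and 3.47 without it, both at a two-sided exact permutation p of 0.1, the smallest that 3 against 3 allow. With any 1 vector lysate left out, the pooled test could not pass, since its smallest p is then 0.0714.

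**Figure D4:**
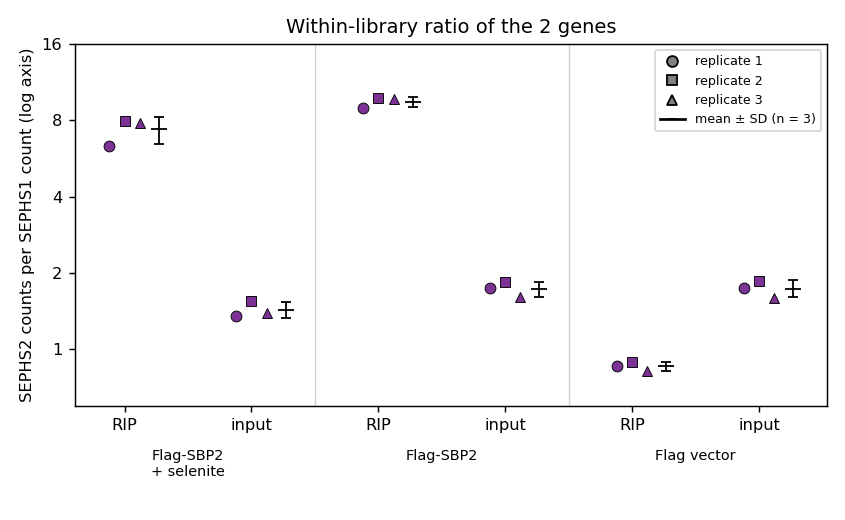
SEPHS2 counts per SEPHS1 count (log axis) in each of 18 libraries, RIP left of input for each treatment; symbols mark replicates and bars the mean ± SD (n = 3). The ratio is 6.33 to 9.79 in SBP2 precipitates, 0.820 to 0.890 in vector precipitates and 1.35 to 1.86 in inputs, with inputs after selenite lowest.

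The effect of selenite on recovery was tested by comparing the RIP-to-input changes of the 2 SBP2 treatments. For SEPHS2 the difference with selenite minus without it was -0.12 (SE 0.13, 95% interval -0.39 to 0.16, edgeR adjusted p = 0.995). For SEPHS1 it was -0.027 (SE 0.099, 95% interval -0.23 to 0.18, edgeR adjusted p = 0.995). The intervals span -23.5% to 11.4% for the recovery of SEPHS2 and -14.8% to 13.1% for that of SEPHS1. No ID passed among the 17678 tested (0% called in either direction): edgeR gave an unadjusted p under 0.05 for 800 IDs, and DESeq2 called 1 ID lower and limma voom 0.

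Lysates of the same number ran alike for SEPHS2. By number, the ratio with selenite minus that without it was -0.10, -0.13 and -0.13, a mean of -0.12 ± 0.017 (SD, n = 3 pairs), lower in 3 of 3 pairs. The two-sided exact paired permutation p was 0.25, the smallest that 3 pairs allow. For SEPHS1 the differences were 0.026, -0.088 and -0.019, lower in 2 of 3 pairs (exact paired permutation p = 0.75). In an edgeR fit with the lysate as a replicate block and a RIP effect per replicate number, added after these values were seen, SEPHS2 differed by -0.12 (SE 0.078, adjusted p = 0.550) and SEPHS1 by -0.027 (SE 0.080, adjusted p = 0.939). That fit called 142 IDs higher and 82 lower. The precipitates compared without their inputs gave a difference of -0.34 for SEPHS2 (SE 0.084, edgeR adjusted p = 0.0660) and 0.027 for SEPHS1 (edgeR adjusted p = 0.941), so the difference in SEPHS2 was smaller when each precipitate was set against its input.

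The inputs give mRNA levels in the lysate. In whole cultures, a change in every cell and a larger change in the transfected cells alone cannot be told apart. Flag-SBP2 without selenite left no detectable difference in either gene. SEPHS2 inputs with Flag-SBP2 against vector inputs differed by -0.017 (SE 0.091, 95% interval -0.21 to 0.18, edgeR adjusted p = 0.942) and SEPHS1 inputs by -0.010 (SE 0.078, 95% interval -0.18 to 0.16, edgeR adjusted p = 0.959). Of 16616 IDs tested in inputs, 0.361% were called higher and 0.518% lower, or 0.385% and 0.343% with upper-quartile factors. These counts were unstable: 60 IDs higher and 86 lower became 17 and 4 without Flag-SBP2 replicate 2, and 398 and 339 without vector replicate 1. With the replicate number as a block, 1233 IDs (7.42%) were called higher and 1501 (9.03%) lower. Same-numbered inputs of these treatments had nearly the same balance of the 2 genes, with log2 differences in SEPHS2 counts per SEPHS1 count of 0.0023, -0.020 and 0.0044.

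With selenite the SEPHS2 inputs were the lowest of the 3 treatments in TMM-scaled CPM, and none overlapped there with an input of another treatment. With library size alone, selenite input 2 (309 CPM) lay above vector input 3 (301 CPM). The share of all IDs whose selenite inputs lie apart from the others in this way was not counted. Against Flag-SBP2 inputs without selenite, SEPHS2 differed by -0.22 (SE 0.091, 95% interval -0.41 to -0.023) and did not pass (edgeR adjusted p = 1.00). In this comparison 0.00602% of IDs were called higher and 0% lower. Against vector inputs it differed by -0.24 (SE 0.091, 95% interval -0.43 to -0.040) and did not pass either (edgeR adjusted p = 0.346). Here 0.307% of IDs were called higher and 0.247% lower, or 0.355% and 0.162% with library size alone. That scaling put SEPHS2 at -0.19 in both comparisons, with 95% intervals that reached just above 0 (upper ends 0.0039 from Flag-SBP2 and 0.0054 from vector inputs).

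By their correlations, inputs with selenite were taken as paired by number with those of both other treatments, although no label states such a pairing. The block was fitted over all 9 inputs. It thus also covers Flag-SBP2 with vector inputs, whose correlation was 0.085 at the lowest, under the limit of 0.1. The block changed 1 of these calls. With the replicate block, SEPHS2 was lower with Flag-SBP2 and selenite than in vector inputs. The difference was -0.23 on the log2 scale (SE 0.062, 95% interval -0.36 to -0.10, edgeR adjusted p = 0.0227). In that comparison 4.54% of all IDs were called lower and 2.26% higher. Vector inputs had neither Flag-SBP2 nor selenite. Selenite was given only together with Flag-SBP2, so the comparison with vector inputs did not test selenite alone. Against Flag-SBP2 inputs, where selenite alone differs, the blocked difference was -0.22 and did not pass (SE 0.062, edgeR adjusted p = 0.143). There 0.0301% of IDs were called higher and 0.193% lower. The 2 comparisons share the selenite inputs and are not independent. Without the block, leaving out 1 library moved the difference from vector inputs between -0.28 and -0.17, and that from Flag-SBP2 inputs between -0.27 and -0.18.

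SEPHS1 inputs with selenite differed by 0.058 from Flag-SBP2 inputs (SE 0.078, 95% interval -0.11 to 0.22, edgeR adjusted p = 1.00) and by 0.048 from vector inputs (SE 0.078, 95% interval -0.12 to 0.21, edgeR adjusted p = 0.895). With the block the adjusted p was 0.782 and 0.705 in edgeR. SEPHS2 counts per SEPHS1 count were lower in inputs with selenite than in same-numbered Flag-SBP2 inputs by -0.37, -0.25 and -0.20 on the log2 scale, and than in vector inputs by -0.37, -0.27 and -0.20. The balance of the 2 mRNAs was thus lower in 3 of 3 pairs each way. It was 0.827 of the level in Flag-SBP2 inputs and 0.824 of that in vector inputs, which also lack Flag-SBP2. Both ways use the same 3 selenite inputs and are not independent. The share of other gene pairs that are lower in 3 of 3 pairs was not counted. No test was made of these pairs.

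**Figure D5:**
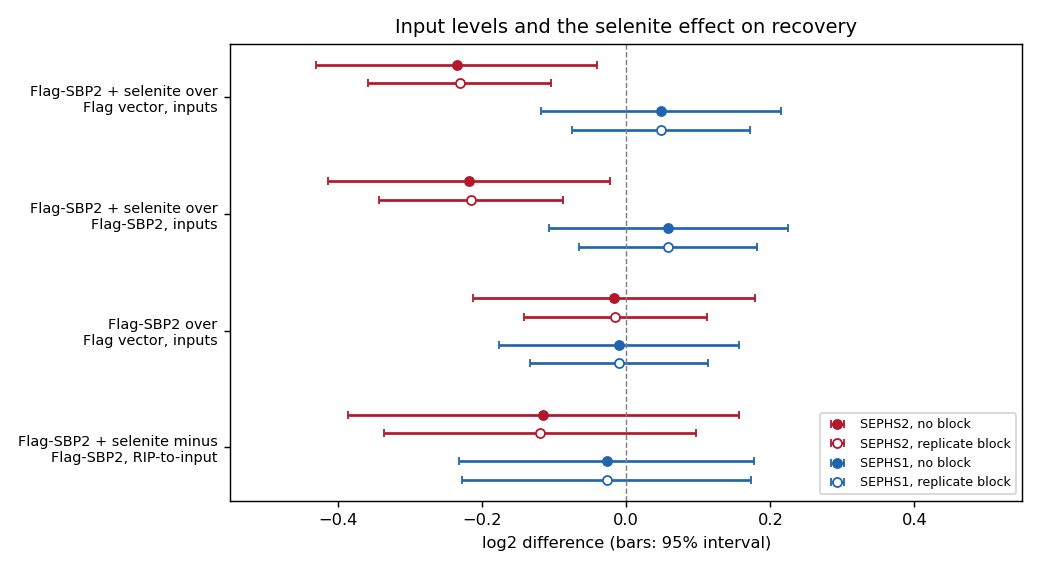
Log2 differences of SEPHS2 and SEPHS1 (points) with 95% intervals (bars), for 3 comparisons of inputs and for the selenite effect on the RIP-to-input change; filled points are fits without a replicate block and open points fits with the replicate number (inputs) or lysate (RIP-to-input) as a block. The SEPHS2 input differences with selenite, at -0.24 and -0.22, have intervals below 0, and the other intervals include 0.

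The IDs whose recovery was most like that of each gene were sought by the root mean square difference of the log2 RIP-to-input ratio over the 9 lysates, among 13204 IDs whose log2 CPM averaged at least 1. For SEPHS2 the nearest was ENSG00000131871, at 0.17, with ratios of 2.71 ± 0.13 with Flag-SBP2 and selenite, 2.79 ± 0.070 with Flag-SBP2 and -0.35 ± 0.097 with the vector (SD, n = 3). Next was ENSG00000162430, at 0.28, with 2.58 ± 0.054, 2.67 ± 0.12 and 0.028 ± 0.18 in the same order of treatments (SD, n = 3). The median difference of all these IDs from SEPHS2 was 2.35.

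For SEPHS1 the nearest was ENSG00000101040, at 0.066, with ratios of 0.46 ± 0.039, 0.53 ± 0.040 and 0.85 ± 0.029 in that order (SD, n = 3). Next was ENSG00000149657, at 0.075, with 0.48 ± 0.053, 0.53 ± 0.011 and 0.82 ± 0.12 (SD, n = 3). The median difference of all IDs from SEPHS1 was 0.78, and SEPHS1 and SEPHS2 differed from each other by 2.05. The ratios of all IDs come from the same libraries, and the sources used here do not pair these 4 IDs with gene names.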

How the data were processed

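The authors deposited whole-number counts per Ensembl gene ID for 18 libraries. The submitters' processing notes name Trim Galore 0.6.6, STAR 2.7.6a, featureCounts 2.0.1 and GRCh38 (hg38), with annotation, strand setting and multi-mapping rule not given in the sources used here. Per the labels' protocols, 1 part in 5 of each sample was taken as input before 4 mg of protein met the anti-Flag beads for 5 h, with washes in 300 and 500 mM KCl. Samples were grouped and numbered by title. The series design calls the replicates biological, but no label says whether they were transfected separately, so p-values measure the spread between these libraries.

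Counts were filtered (filterByExpr, minimum count 10, minimum total 15), scaled by TMM and tested with edgeR 4.0.16 in R 4.3.3 (two-sided quasi-likelihood test, group means over 18 libraries, or over 9 inputs with 16616 IDs), with Benjamini-Hochberg adjustment over all tested IDs and a threshold of 0.05. Ratios of single lysates are differences of log2 CPM with a prior count of 2. Permutation tests used scipy 1.17.1. DESeq2 1.42.0, limma 3.58.1 (voom), other scalings and filters, blocks, thinning and left-out libraries were alternatives. The edgeR fits (without a block and with the lysate as block), DESeq2 and voom were tried on simulated counts. The permutation tests, lysate ratios and correlations were not.

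Chi-square over its degrees of freedom was at least 4.70 between replicates, so no pair matched within sampling noise and each library counted once. By protocol each RIP shares a lysate with an input, and the 2 were matched by the number in their titles (correlation of deviations from group means 0.0012 to 0.19). The correlations did not bear out every match. Vector RIP 2 correlated better with vector input 1 (0.076) than with input 2 (0.018), and selenite RIP 3 about equally with selenite inputs 2 (0.0015) and 3 (0.0012). Same-numbered inputs with selenite correlated at 0.13 to 0.31 with vector and 0.11 to 0.19 with Flag-SBP2 inputs, each above the limit of 0.1; Flag-SBP2 and vector inputs reached only 0.085 at the lowest. Same-numbered lysate ratios with and without selenite correlated at 0.12 to 0.45, against -0.42 to 0.22 for different numbers, and selenite lysate 1 correlated better with Flag-SBP2 lysate 2 (0.22) than with lysate 1 (0.20).

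The members and lists were chosen with earlier results of these data known. The table given here pairs 0 of 59792 RefSeq genes with an Ensembl ID, so lists fixed by symbol (selenocysteine machinery, selenoproteins, cell type markers) and the transfected gene were not analysed here, and the symbols of the 2 genes were supplied with their IDs for this work. Similar IDs were named by a fixed rule: the nearest 2 by ratio pattern for each gene.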

Additional observations from a re-analysis of the deposited data

Results flagged for a closer look

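The RIP-to-input change differed between treatments for both genes, by the test of the difference itself. For SEPHS2 it was larger with Flag-SBP2 and selenite than with the vector by 3.01 (edgeR adjusted p = 5.42e-15), and with Flag-SBP2 alone by 3.13 (edgeR adjusted p = 1.79e-15), on the log2 scale. For SEPHS1 it was smaller than with the vector, at -0.37 with selenite (edgeR adjusted p = 0.00491) and -0.34 without it (edgeR adjusted p = 0.00715). Every SBP2 lysate lay above every vector lysate for SEPHS2 and below every vector lysate for SEPHS1. The SBP2 and vector RIP libraries also differed in their TMM factors, at 0.990 to 1.04 against 1.07 to 1.10. With library size alone the SEPHS1 difference was -0.50 with selenite and -0.49 without it. Its distance from the median of all IDs is left nearly as it is by any scaling of all IDs alike. Groups of 3 libraries were too small for a test of single outlying libraries.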

How the results depend on the processing

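Of 403 alternative values for 22 results, 380 kept direction and side of the threshold, 3 passed that had not, 4 no longer passed and 16 changed sign. The permutation results of 3 against 3 lysates are among those kept, but their p could not go below 0.1, so their side of the threshold was fixed in advance. SEPHS2 in vector RIP against input passed with a minimum count of 50 (log2 -0.23) and with the lysate as replicate block (-0.19), and was 0.00029 with library size alone. SEPHS2 inputs with Flag-SBP2 and selenite against vector inputs passed with the replicate block (-0.23). Relabelling within replicate number, added after seeing the data, kept the shift between the genes with SBP2 at 3.42 but raised its exact permutation p to 0.0741. The block changed no other call. The sign changes were otherwise confined to differences near 0 that passed nowhere. For Flag-SBP2 against vector inputs, SEPHS2 became 0.010 with upper-quartile factors, 0.0015 with library size alone and 0.0062 with the stricter filter. SEPHS1 became 0.017, 0.0085 and 0.013 under these, and 0.0025 with DESeq2-type factors, 0.0025 with DESeq2 and 0.0019 without a filter. Leaving out single libraries gave -0.071 to 0.045 for SEPHS2 and -0.016 to 0.0060 for SEPHS1. The selenite effect on SEPHS1 recovery became 0.027 from precipitates alone. The cause of these changes was not tested. The shift between the genes with SBP2 ran from 3.39 to 3.46 without single lysates; p was 0.0714 without any vector lysate, the smallest then possible. Counts over all IDs moved by over 1.5 times mainly among inputs: Flag-SBP2 against vector from 60 higher and 86 lower to 1233 and 1501 with the block and 17 and 4 without Flag-SBP2 replicate 2; with selenite against vector from 51 and 41 to 375 and 755 with the block and 22 and 1 without selenite replicate 2; with against without selenite from 1 and 0 to 5 and 32 with the block and 5 and 22 without a filter. For selenite on recovery, 0 either way became 142 and 82 with the block and a RIP effect per number, added after seeing the data, and 5 and 99 from precipitates alone, which also raised the IDs lower than vector to 4817 with selenite and 5244 without it, against 2540 and 3201.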
